A study of Mus musculus with 38 samples.

Results

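The genes that flank Met on mouse chromosome 6 were followed in livers of mice with and without floxed Met. The 9 genes are, in chromosomal order, Tfec, Tes, Cav2 and Cav1 on one side of Met and Capza2, St7, Wnt2, Asz1 and Cftr on the other, by their order in RefSeq (GRCm38.p6). They were taken by name from the platform's gene symbols and are covered by 14 of 36607 probes, which are 9 of 17501 single gene symbols. The genes were chosen by their place beside the floxed locus and by measured values, the higher ratios of St7 and Capza2 in knockouts. Their genotype difference at 5 months is therefore given as a description, with no p-value, and its counts past the threshold support nothing.

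The series covers 20 male mice in 4 groups of 5, each measured by whole-liver RNA on 2-colour oligonucleotide arrays. Every mouse, controls included, received 1 intraperitoneal dose of the hepatocarcinogen N-nitrosodiethylamine (DEN), 10 micrograms per gram of body weight, at 14 days of age. Controls carried Alb-Cre +/-, which places Cre recombinase under the albumin promoter, and had the strain label B6129. Knockouts carried Alb-Cre +/-; Met Fl/Fl and had the strain label 129SV/C57BL6, so that genotype and strain label cannot be told apart. Livers were taken at times called 3 and 5 months after the dose in the design text, while the labels give ages of 12 and 20 weeks, so how long after the dose remains unsettled. The albumin promoter acts in hepatocytes, and the labels do not say which other cells of the liver keep Met. Each liver was compared with 1 reference, RNA pooled from 5 wild-type male B6129 livers aged 12 weeks. In whole liver, fewer cells of a type and less RNA per cell cannot be told apart.

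All values are log2 ratios of liver over that reference, 1 per mouse, averaged over the dye orientations. The labels do not state the numerator dye. Cy5 over Cy3 was assumed as the usual convention and is likely. If it were Cy3 over Cy5, higher would read lower, and the reverse, in each sentence. Both orientations were available for 18 mice, while 5-month knockout 2 has only an array with liver in Cy3 and 5-month knockout 3 only one with liver in Cy5, so a dye effect taken from the other mice was subtracted from their values. For 5-month control 4, the array with liver in Cy5 correlated at r = -0.61 to -0.48 across probes with the 10 liver-in-Cy5 arrays of 3 months, at 0.14 to 0.27 with those of the other 5-month controls, and at 0.70 with the turned array of the same mouse. The negative correlations set this array apart, while the 0.70 with the other array of the same mouse goes with its labelled direction. The 5-month values are also given without it and with its sign turned. Turning it sets the 2 arrays of that mouse against each other, so those values are a limit and not an equal alternative. The arrays fall into 4 runs of consecutive experiment numbers, called series A to D. The 5-month controls and knockouts 1 and 2 lie in A, 5-month knockouts 3 to 5 in B, and the 3-month mice in C and D, each of which holds both genotypes. Ratios to a liver reference do not show whether a marker gene is present, so the labelled tissue could not be checked with them.

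Met encodes the receptor tyrosine kinase for hepatocyte growth factor, a signal for hepatocyte survival, proliferation and regeneration. A gene flanked by loxP sites is deleted in the cells that make Cre, while the genes beside it are not part of the deletion. The neighbours of Met have unrelated roles, from actin capping and caveolae to a germ cell protein and a chloride channel.

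Capza2 and St7 are the first and the second measured gene beyond Met. Capza2 encodes an alpha subunit of the capping protein that closes the fast-growing ends of actin filaments. St7 encodes a membrane protein described as a candidate tumour suppressor. The 250 bases before the RefSeq transcription start are shown for both, since these neighbours lay higher together in knockouts. St7 has 3 starts in the table and the one farthest upstream is shown. Capitals mark matches, on either strand, to 6 motifs: the NRF1 site (its palindromic consensus), the cAMP response half-site with the letters TGACGT, the TATA box searched as TATAAA, the E-box searched as CACGTG, the GC box searched as GGGCGG, and the CCAAT box by its name. No motif found overlaps another.
Capza2, chr6:17636760-17637009, plus strand: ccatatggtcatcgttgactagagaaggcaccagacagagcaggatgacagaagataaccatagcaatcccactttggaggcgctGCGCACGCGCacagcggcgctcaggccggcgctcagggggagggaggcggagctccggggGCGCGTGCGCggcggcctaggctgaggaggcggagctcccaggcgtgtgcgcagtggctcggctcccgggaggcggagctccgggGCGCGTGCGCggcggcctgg
St7, chr6:17693744-17693993, plus strand: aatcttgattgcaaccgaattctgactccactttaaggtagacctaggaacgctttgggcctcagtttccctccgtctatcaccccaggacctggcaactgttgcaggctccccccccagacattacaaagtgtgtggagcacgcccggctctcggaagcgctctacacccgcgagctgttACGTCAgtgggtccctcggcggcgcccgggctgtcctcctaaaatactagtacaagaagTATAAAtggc
The Capza2 window holds 3 matches to the NRF1 site, which 3.74% of all 32851 windows of this length in the table hold at least once. The St7 window holds 1 cAMP response half-site (6.47% of windows) and 1 TATA box (12.4%). No E-box (6.02%), GC box (32.7%) or CCAAT box (33.8%) has its letters in either window, and the motifs found in one are not in the other. The other St7 starts in the table have no match to any of the 6. The files do not say which transcript each probe detects.

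St7 was measured by 3 probes, 2 designed to its RefSeq mRNA and 1 to a cDNA clone. With the first probe, 3-month controls had values of 0.29, -0.08, 0.18, 0.18 and 0.38, and 3-month knockouts 0.91, 0.88, 0.81, 0.60 and 0.68. At 5 months controls had 0.48, 0.35, 0.17, -0.09 and 0.09, and knockouts 1.50, 1.14, 0.99, 1.03 and 0.94. Every knockout thus lay above every control at both ages, and knockout 1 of 5 months was the highest liver of all.

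The second St7 probe gave 0.32, 0.19, 0.31, 0.11 and 0.37 in 3-month controls against 0.94, 0.81, 0.74, 0.75 and 0.58 in 3-month knockouts. At 5 months it gave 0.41, 0.36, 0.21, -0.15 and -0.20 in controls against 1.13, 0.76, 0.92, 1.02 and 0.82 in knockouts. Here too the genotypes did not overlap at either age. Taking both ages together, the 10 knockouts ran from 0.60 to 1.50 and the 10 controls from -0.09 to 0.48 with the first probe, and from 0.58 to 1.13 against -0.20 to 0.41 with the second. Of all 36607 probes, 8 (0.0219%) had all 10 knockouts above all 10 controls, and 2 of those 8 were these St7 probes. That count includes the 5-month mice in which St7 was chosen and is given as a description.

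The third St7 probe showed no such separation. Its means were -0.02 ± 0.18 and -0.09 ± 0.32 (SD, n = 5) in 3-month controls and knockouts, and -0.36 ± 0.23 and -0.21 ± 0.25 at 5 months, with overlapping genotypes at both ages. Over the 20 mice the first and second probe correlated at r = 0.94, and the third correlated with them at 0.01 and 0.11. These correlations share mice and arrays and are descriptions. With group means removed, the first and second probe still correlated at 0.74. Probes of St7 therefore disagree, and which of its transcripts each reads is not given.

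Capza2 was measured by 2 probes. The first gave 0.58, 0.27, 0.33, -0.01 and 0.55 in 3-month controls and 0.76, 0.76, 0.41, 0.72 and 0.39 in 3-month knockouts. At 5 months it gave 0.14, 0.22, 0.05, -0.10 and -0.11 in controls and 0.92, 0.87, 0.66, 0.90 and 0.68 in knockouts. The genotypes overlapped at 3 months and were separate at 5 months, where all 5 knockouts lay at 0.66 or above and all controls at 0.22 or below.

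The second Capza2 probe gave -0.05, -0.11, 0.14, 0.14 and 0.19 in 3-month controls and 0.17, 0.20, 0.32, 0.49 and -0.19 in 3-month knockouts. At 5 months it gave -0.41, 0.05, -0.40, -0.49 and -0.14 in controls and 0.16, 0.47, 0.36, 0.62 and 0.51 in knockouts. It repeats the pattern of the first probe, with overlap at 3 months and none at 5. The probes correlated at r = 0.76 over 20 mice, but at 0.20 with group means removed.

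**Figure D1:**
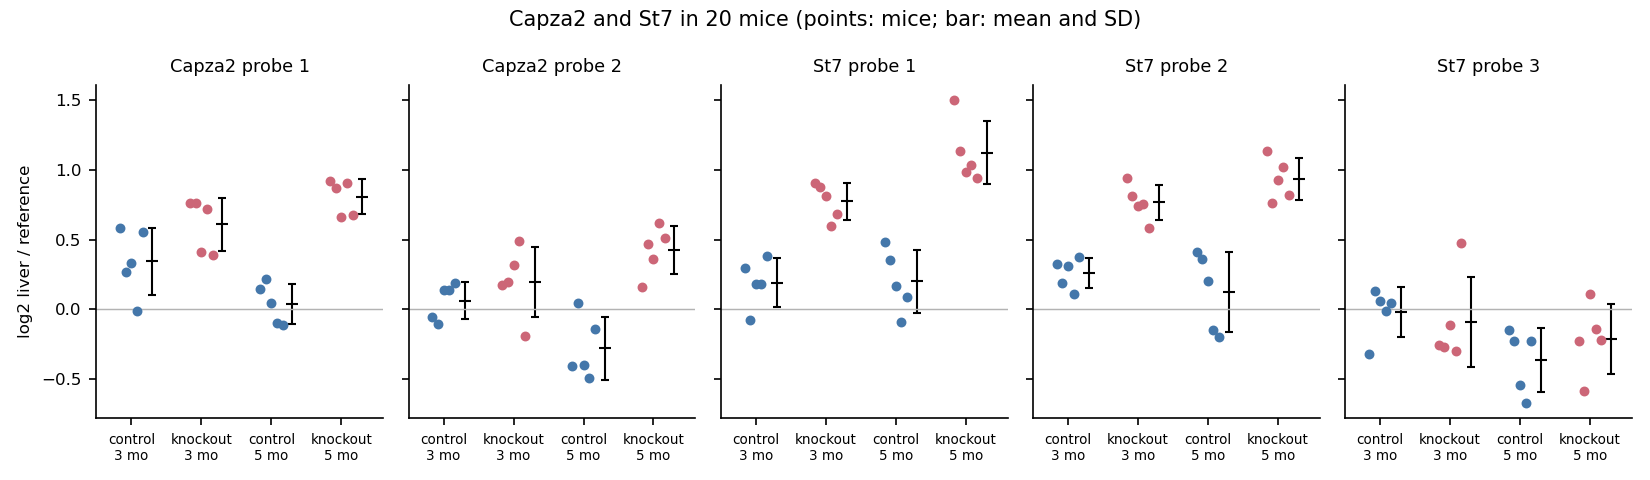
Log2 ratio of liver over reference (vertical axis) for the Capza2 and St7 probes in the 4 groups; points are mice and bars show mean and SD, n = 5. Knockouts (red) lie above all controls (blue) in the first and second St7 probes at both ages and in both Capza2 probes at 5 months, and overlap them in the third St7 probe.

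At 3 months the knockout minus control difference of St7 was 0.58 ± 0.14 (SE, 1.50-fold, adjusted p = 0.159) with the first probe and 0.50 ± 0.13 (1.42-fold, adjusted p = 0.207) with the second. All 5 knockouts lay above the control mean with each probe, yet neither passed the threshold of adjusted p under 0.05 over all probes in limma. For the third probe it was -0.07 ± 0.16 (adjusted p = 0.960). Capza2 gave 0.26 ± 0.13 (adjusted p = 0.639, 5 of 5 knockouts above the control mean) and 0.14 ± 0.14 (adjusted p = 0.874, 4 of 5). The wording by which St7 and Capza2 were chosen names no age, so the 3-month mice may have entered the choice too. With each 3-month mouse left out in turn, the St7 difference at 3 months stayed between 0.52 and 0.63 with the first probe. With the second it stayed between 0.46 and 0.55. Leaving out a 5-month mouse cannot move these differences.

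Of the 14 probes of the 9 genes, limma called 0 at 3 months, where it called 13 of all 36607 (0.0355%). An unadjusted p under 0.05 was found for 2 of the 14, the first and second St7 probe, against 2915 (7.96%) of all probes. The methods' t-test called 2 of the 14 at its unadjusted threshold of 0.001, and 0 after Benjamini-Hochberg adjustment. No share over all probes is set beside that count, so nothing is read from it. The groups did not overlap, with knockouts higher, for the same St7 probes, as for 141 (0.385%) of all probes. Since the 3-month mice may have entered the choice of St7, nothing is read from these shares either.

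At 5 months, described without a test, the St7 difference was 0.92 ± 0.14 (SE, 1.89-fold) and 0.81 ± 0.13 (1.75-fold) with the first and second probe and 0.15 ± 0.16 with the third. The Capza2 difference was 0.77 ± 0.13 (1.70-fold) and 0.70 ± 0.14 (1.63-fold). These 4 probes of 2 genes were past the threshold, among 53 of all probes (0.145%), of which 47 (0.128%) were higher in knockouts. They were also the 4 members with separate groups and higher knockouts, as were 947 (2.59%) of all probes. Since the genes were chosen with this contrast in view, nothing is read from these shares. Just inside the threshold lay the second Capza2 probe at 0.70 ± 0.14, and the member with the next smallest p, outside it, was Cav1 at -0.70 ± 0.29.

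Without the array of 5-month control 4 that stood apart, the 5-month differences were 0.97 and 0.80 for St7 and 0.74 and 0.69 for Capza2, with 3 probes past the threshold. With its sign turned they were 0.95, 0.77, 0.72 and 0.59, with 1 probe past it. No direction turned, while the number past the threshold fell to 1 without 5-month control 4, control 5 or knockout 4, to 2 without knockout 1 or knockout 5, and to 0 with array series as a covariate. With the replicate number as a block it was also 0. Of all probes, 0 passed with the series covariate and 1 with the block.

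Within array series A alone, which holds all 5-month controls and knockouts 1 and 2, the 5-month differences were 1.12 and 0.82 for St7 and 0.86 and 0.59 for Capza2. At 3 months, series C gave 0.76 and 0.60 for St7 and series D 0.41 and 0.45. For Capza2 they gave 0.37 and 0.19 in C and 0.24 and 0.04 in D. All of these are higher in knockouts, as over all mice, with larger St7 values in C than in D at 3 months.

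Both dye orientations gave higher values in knockouts. From liver-in-Cy5 arrays alone, the 5-month differences were 0.74 and 0.74 for St7 and 0.60 and 0.41 for Capza2, and from liver-in-Cy3 arrays alone 1.12 and 0.92 and 0.95 and 0.99. At 3 months St7 gave 0.77 and 0.54 with liver in Cy5 and 0.40 and 0.47 with liver in Cy3. Capza2 gave 0.38 and 0.16 against 0.14 and 0.11. After turning, the orientations thus gave 1 sign for these 4 probes at both ages. Over all 14 probes they did so for 10 at 3 months and 7 at 5 months. Read without turning, the 5-month differences would be -0.19 and -0.07 for St7 and -0.18 and -0.28 for Capza2. The 3-month differences would then shrink to 0.19 and 0.03 for St7 and to 0.12 and 0.03 for Capza2. The 2 arrays of a mouse, as deposited, had correlations from 0.34 to 0.51 at 3 months and from -0.70 to 0.18 at 5 months over all probes.

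**Figure D2:**
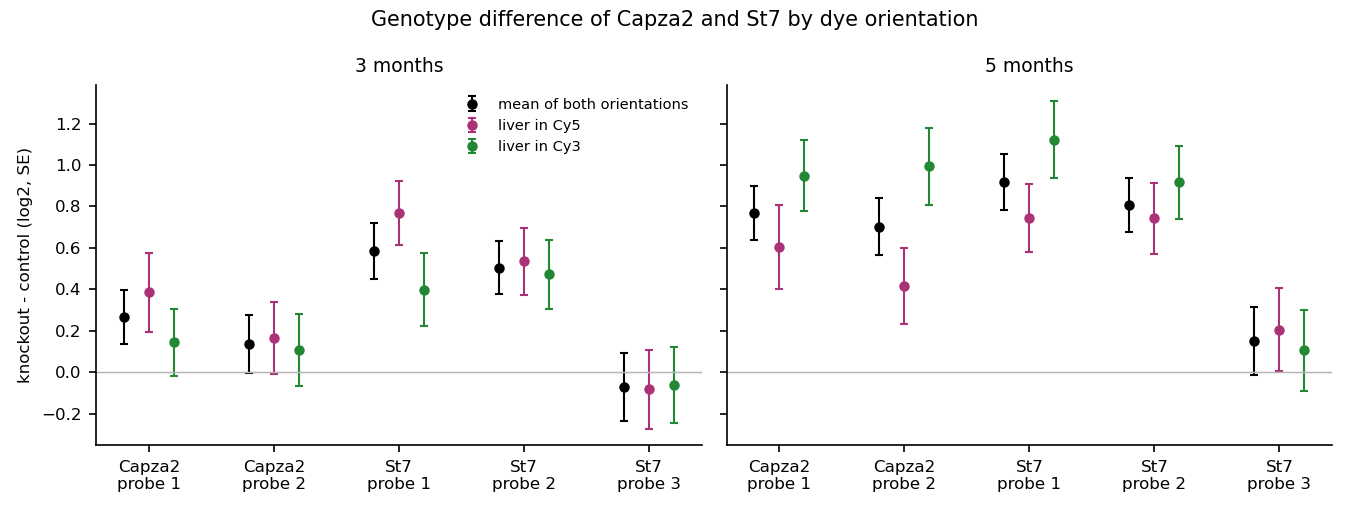
Knockout minus control difference on the log2 scale with its SE (vertical axis) for the Capza2 and St7 probes at 3 and 5 months, from the mean of both orientations (black), liver-in-Cy5 arrays (purple) and liver-in-Cy3 arrays (green). Both orientations place the first and second St7 probes above 0 at both ages, between 0.40 and 1.12.

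From 3 to 5 months the genotype difference grew by 0.34 ± 0.19 and 0.30 ± 0.18 (SE, log2) for the first and second St7 probes and by 0.50 ± 0.18 and 0.57 ± 0.20 for Capza2. These are descriptions without a test. For Capza2, controls were lower at 5 than at 3 months (-0.31 ± 0.13 and -0.34 ± 0.14) and knockouts were higher (0.20 and 0.23). St7 was similar in controls of both ages with the first probe (0.01 ± 0.14) and higher in 5-month knockouts (0.34 ± 0.14), where the knockouts of the ages did not overlap, as for 1774 (4.85%) of all probes. With the second probe, St7 was lower in 5-month controls (-0.14 ± 0.13) and differed by 0.17 ± 0.13 in knockouts, whose ages overlapped. Age and array series cannot be told apart, since each series holds 1 age.

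Means of cell type markers at 5 months are given beside these values. The mean log2 ratio of 7 hepatocyte markers ran from -0.52 to 0.18 in 5-month controls and from 0.06 to 0.32 in knockouts. For 6 stellate cell and fibroblast genes it ran from -0.51 to -0.24 in controls and from -0.19 to -0.10 in knockouts. For 7 measured macrophage genes of 8 it ran from -0.48 to 0.06 and from -0.10 to 0.36. The genotypes overlapped for the hepatocyte and macrophage lists and not for the stellate cell and fibroblast list. Of the probes on these 3 lists, 1 of 28 passed at 5 months, a stellate cell and fibroblast probe, and 0 passed at 3 months. Over all probes 0.145% passed at 5 months and 0.0355% at 3 months. Over 20 mice, as a description, the first and second St7 probes correlated with the hepatocyte list at r = 0.35 and 0.43, with the stellate cell and fibroblast list at 0.45 and 0.58 and with the macrophage list at 0.38 and 0.57. The Capza2 probes did so at 0.50 and 0.51, at 0.54 and 0.60, and at 0.54 and 0.67. Their part in the result was not tested.

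St7 and Capza2 also tracked each other from mouse to mouse. Over the 20 mice the first Capza2 probe correlated with the first and second St7 probes at r = 0.85 and 0.91, and with group means removed at 0.56 and 0.70. The second Capza2 probe did so at 0.65 and 0.71, and at -0.03 and 0.11 with group means removed. In the second Capza2 probe the likeness to St7 is thus one between group means.

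The genes most like them over the 20 mice are given by Pearson's r among probes with a single symbol. They were picked on values that hold the genotype difference, so they get no test of it. For the first St7 probe these were Csrp2 (r = 0.81), H2-Bl (0.80), Cyp3a13 (0.79), Dynlt1b (0.79) and Gcdh (0.77). For the second they were H2-Bl (0.87), Cib3 (0.86), Cyp3a13 (0.85), Ppp3cb (0.84) and Glo1 (0.81). H2-Bl, a class I histocompatibility gene, and Cyp3a13, a cytochrome P450, were in both sets.

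For the first Capza2 probe the most alike were Dynlt1b (0.84), Rbbp7 (0.82), Glo1 (0.80), Haus1 (0.79) and Pla1a (0.79). For the second they were Cbfa2t2 (0.82), Sh3bgrl (0.81), Rbbp7 (0.80), Hprt (0.80) and Sorbs2 (0.80). Glo1, which encodes the methylglyoxal-detoxifying enzyme glyoxalase I, and Dynlt1b, a dynein light chain gene, were each alike to a probe of St7 and of Capza2. All of these values share mice and arrays with the members.

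The caveolin genes lie on the other side of Met. Cav1 encodes the main coat protein of caveolae, the small pits of the cell membrane, and Cav2 its partner, and both are abundant in endothelium. Cav1 gave 0.43, 0.42, -0.66, 0.77 and -0.03 in 3-month controls and 0.18, -0.82, 0.13, 0.15 and -1.20 in 3-month knockouts. At 5 months it gave 0.61, 0.22, 0.22, 1.17 and 0.12 in controls and -0.46, -0.31, -0.27, -0.07 and -0.08 in knockouts. The groups overlapped at 3 months, and at 5 months all 5 knockouts lay below all controls, as for 487 (1.33%) of all probes.

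The Cav1 difference was -0.50 ± 0.29 (SE, adjusted p = 0.729) at 3 months, with 5 of 5 knockouts below the control mean, and did not pass. At 5 months, as a description, it was -0.70 ± 0.29. It was -0.58 without the array of control 4 and -0.35 with that array turned. Cav2 did not follow Cav1. Its probes gave -0.25 ± 0.19 (adjusted p = 0.814) and 0.22 ± 0.21 (adjusted p = 0.861) at 3 months, and -0.02 and -0.03 at 5 months. They correlated with Cav1 at r = 0.43 and 0.11 over 20 mice, and with each other at 0.31.

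Averaged over 10 endothelial markers, 3-month controls had -0.04 ± 0.08 (SD, n = 5) and 3-month knockouts -0.07 ± 0.09. At 5 months controls had -0.18 ± 0.05 and knockouts -0.04 ± 0.14, the opposite direction from Cav1. This direction is not particular to endothelium. The hepatocyte, macrophage, stellate cell and fibroblast, and germ cell lists also had higher means in 5-month knockouts. Cholangiocyte markers had -0.14 ± 0.13 in 5-month controls and 0.02 ± 0.06 in knockouts. None of their 14 probes passed the threshold at either age in limma, where 0.0355% of all probes passed at 3 months and 0.145% at 5 months. The list correlated with Cav1 at r = -0.02 over 20 mice.

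Tes encodes testin, a LIM-domain protein of focal adhesions. Its first probe gave means of -0.20 ± 0.39 and -0.34 ± 0.50 (SD, n = 5) in 3-month controls and knockouts and 0.29 ± 0.50 and 0.31 ± 0.33 at 5 months. The second gave 0.06 ± 0.34 and 0.00 ± 0.30, then 0.15 ± 0.18 and 0.16 ± 0.23. The genotype differences at 3 months were -0.14 ± 0.26 (SE, adjusted p = 0.948) and -0.06 ± 0.17 (adjusted p = 0.971), both within the spread of the mice. The first probe lay higher at 5 than at 3 months by 0.49 ± 0.26 in controls (adjusted p = 0.203) and 0.65 ± 0.26 in knockouts (adjusted p = 0.130), without passing. The probes agreed only loosely, with r = 0.31 over 20 mice.

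Tfec encodes a transcription factor of the Mitf family that is made mainly in macrophages. Values ran from -1.16 to 0.44 in 3-month controls (median 0.08) and from -1.30 to 0.31 in 3-month knockouts (median -0.03). At 5 months they ran from 0.02 to 0.81 in controls (median 0.47) and from 0.06 to 1.02 in knockouts (median 0.56). The genotype difference was -0.12 ± 0.32 (SE, adjusted p = 0.967) at 3 months and 0.16 at 5 months. Tfec was higher at the later age by 0.56 ± 0.32 in controls (adjusted p = 0.226) and 0.84 ± 0.32 in knockouts (adjusted p = 0.109), which did not pass. The mean of the macrophage markers did not move with it, with r = -0.08 over 20 mice.

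Wnt2 encodes a secreted Wnt ligand that endothelial cells of the liver make. Its means were 0.48 ± 0.47 and 0.30 ± 0.29 (SD, n = 5) in 3-month controls and knockouts, and 0.59 ± 0.36 and 0.69 ± 0.26 at 5 months. The 3-month difference was -0.18 ± 0.22 (SE, adjusted p = 0.905) and the 5-month one 0.10. Although Wnt2 lies next to St7, its genotypes overlapped at both ages.

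Asz1 encodes a germ cell protein of the pathway that silences transposons with piRNAs. It had the widest spread among the 14 probes at 3 months, with controls at -1.36, -0.97, 0.11, 0.01 and 3.74 and knockouts at -1.88, 0.84, -1.55, -1.85 and -0.70. The 3-month difference was -1.34 ± 0.74 (SE, adjusted p = 0.713), and -0.48 without control 5, the mouse at 3.74. At 5 months the means were 0.58 ± 0.56 and 0.27 ± 0.91 (SD, n = 5). Of 5 probes of 4 germ cell markers, 0 passed at either age, against 0.0355% of all probes at 3 months and 0.145% at 5 months. The mean of these markers lay between -0.50 and 1.15 over all mice.

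Cftr encodes a chloride channel that in liver sits in bile duct epithelium. Its values were -2.40, -0.25, -0.39, -0.32 and 0.06 in 3-month controls and -0.42, -0.34, -0.23, 0.04 and -0.62 in 3-month knockouts. At 5 months controls had 0.78, 0.05, 0.69, 0.90 and 0.29 and knockouts 0.32, 0.16, -0.06, 0.27 and 0.06. Control 1 of 3 months is far below the others, and the genotypes overlap at both ages. The 3-month difference was 0.34 ± 0.32 (SE, adjusted p = 0.858), and -0.09 without control 1.

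Cftr was the only one of the 14 probes that limma called between ages in controls, where it called 5369 (14.7%) of all probes. It rose by 1.20 ± 0.32 (SE, log2, adjusted p = 0.0202) from 3 to 5 months, with 5 of 5 mice above the 3-month mean, although the lowest 5-month control (0.05) lay just under the highest 3-month control (0.06). The value was 0.77 without 3-month control 1. Without the array of 5-month control 4 the difference was 0.86 (adjusted p = 0.143), with that array turned 0.70 (adjusted p = 0.428), and without 5-month control 4 altogether 1.11 (adjusted p = 0.0621). From liver-in-Cy5 arrays alone it was 2.94 and from liver-in-Cy3 arrays alone -0.53, so that the orientations disagree in sign. In knockouts it was 0.46 ± 0.32 (adjusted p = 0.374). The 5 measured cholangiocyte markers of 7 had means of -0.15 ± 0.05 and -0.14 ± 0.13 (SD, n = 5) in 3- and 5-month controls.

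In knockouts, 0 of the 14 probes passed between ages in limma, against 1732 (4.73%) of all probes, and 3 had an unadjusted p under 0.05, for Tfec, Tes and St7, against 9411 (25.7%) of all probes. All probes had a median age difference of 0.13 in controls and 0.14 in knockouts, and the 14 probes had 0.10 and 0.23.

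**Figure D3:**
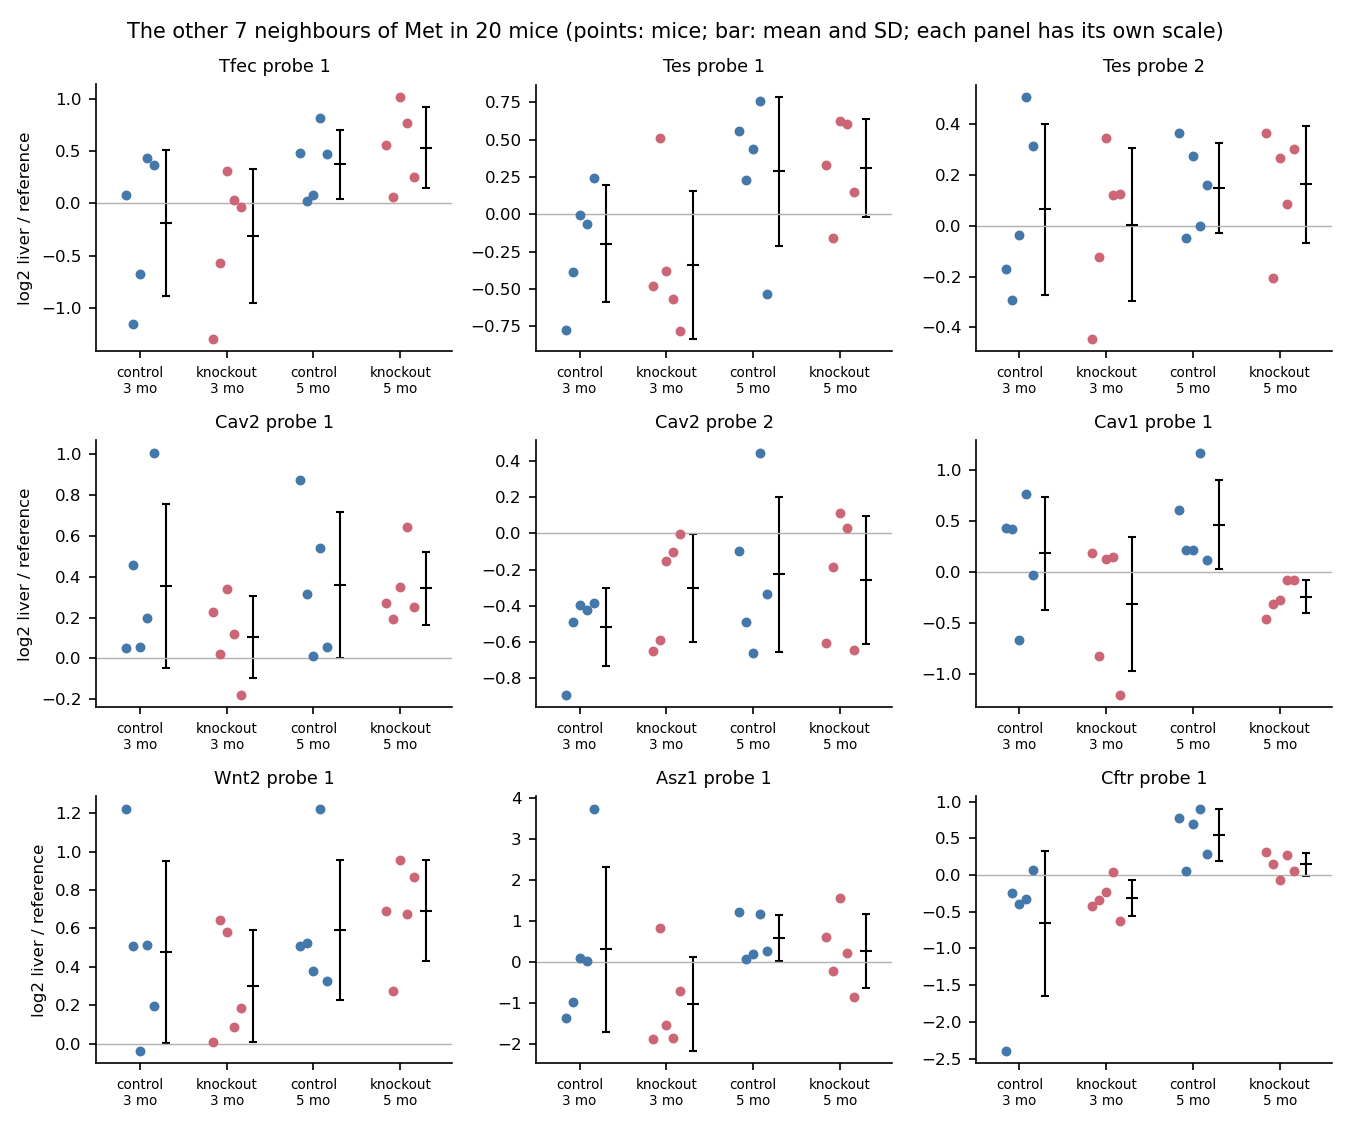
Log2 ratio of liver over reference (vertical axis, scaled per panel) for the 9 probes of the other 7 genes in the 4 groups; points are mice and bars show mean and SD, n = 5. The genotypes (controls blue, knockouts red) overlap in every panel at both ages except Cav1 at 5 months, and single mice of 3 months stand far from their group in Asz1 (3.74) and Cftr (-2.40).

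Met itself, between Cav1 and Capza2, was read by 1 probe. At 3 months controls averaged -0.81 ± 0.18 and knockouts -0.39 ± 0.38 (SD, n = 5), and the means were -0.73 ± 0.30 and -0.78 ± 0.45 at 5 months. The differences were 0.42 ± 0.21 (SE, adjusted p = 0.655) and -0.05 ± 0.21 (adjusted p = 0.979), so this probe did not show lower Met RNA in knockouts. At 3 months every knockout lay above every control (lowest knockout -0.59, highest control -0.62), while at 5 months the genotypes overlapped. Under the opposite reading of the ratio, the 3-month knockouts would lie below the controls. The labels do not say which exons are floxed or where the probe lies, so it checks nothing about the genotype labels.

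The genes around the 9 were read in chromosomal order. Of the 20 measured genes on each side of Met, 31 are not among the 9. Their 51 probes had differences from -1.22 to 0.33 (median 0.01) at 3 months and from -0.49 to 0.64 (median 0.10) at 5 months. In limma 0 of 51 passed at either age, and in 0 of 51 were the groups separate. Groups were separate with knockouts higher in 0.385% of all probes at 3 months. At 5 months they were so in 2.59%, and separate with knockouts lower in 1.33%. The nearest measured genes beyond the 9 were Mdfic, at 0.08 and 0.09, and Cttnbp2, at -0.07 and 0.46 at 3 and 5 months. Of a list of 28 chromosome 6 genes around Met, 24 were measured, 18 of them among those counted here. The 6 beyond them, with 10 probes, ran from -1.11 to 0.31 at 3 months and from -0.07 to 0.42 at 5 months. Of the 10, 0 passed at either age. Only 0.0355% of all probes passed at 3 months and 0.145% at 5 months. A count of 0 among 51 or 10 probes is near those shares and is not read as a result about these genes. Over all probes the median difference was -0.02 at 3 months and 0.01 at 5 months.

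Of 1592 probes placed on chromosome 6, limma called 0 at 3 months and 11 (0.691%) at 5 months, for 7 genes. Over all probes it called 13 (0.0355%) and 53 (0.145%). The 11 include the 4 Capza2 and St7 probes chosen with this contrast in view, so nothing is read from their share. Besides Capza2 and St7 the 7 genes were Nat8f5 (1.07), Mgll (-0.85), Rpl32 (0.83), Mug1 (0.92) and Mug2 (0.97 to 1.09). The nearest of them to Met, Nat8f5, is 562 measured genes away. These 5 genes are named because they are the only others on the chromosome past the threshold, after their values were seen.

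**Figure D4:**
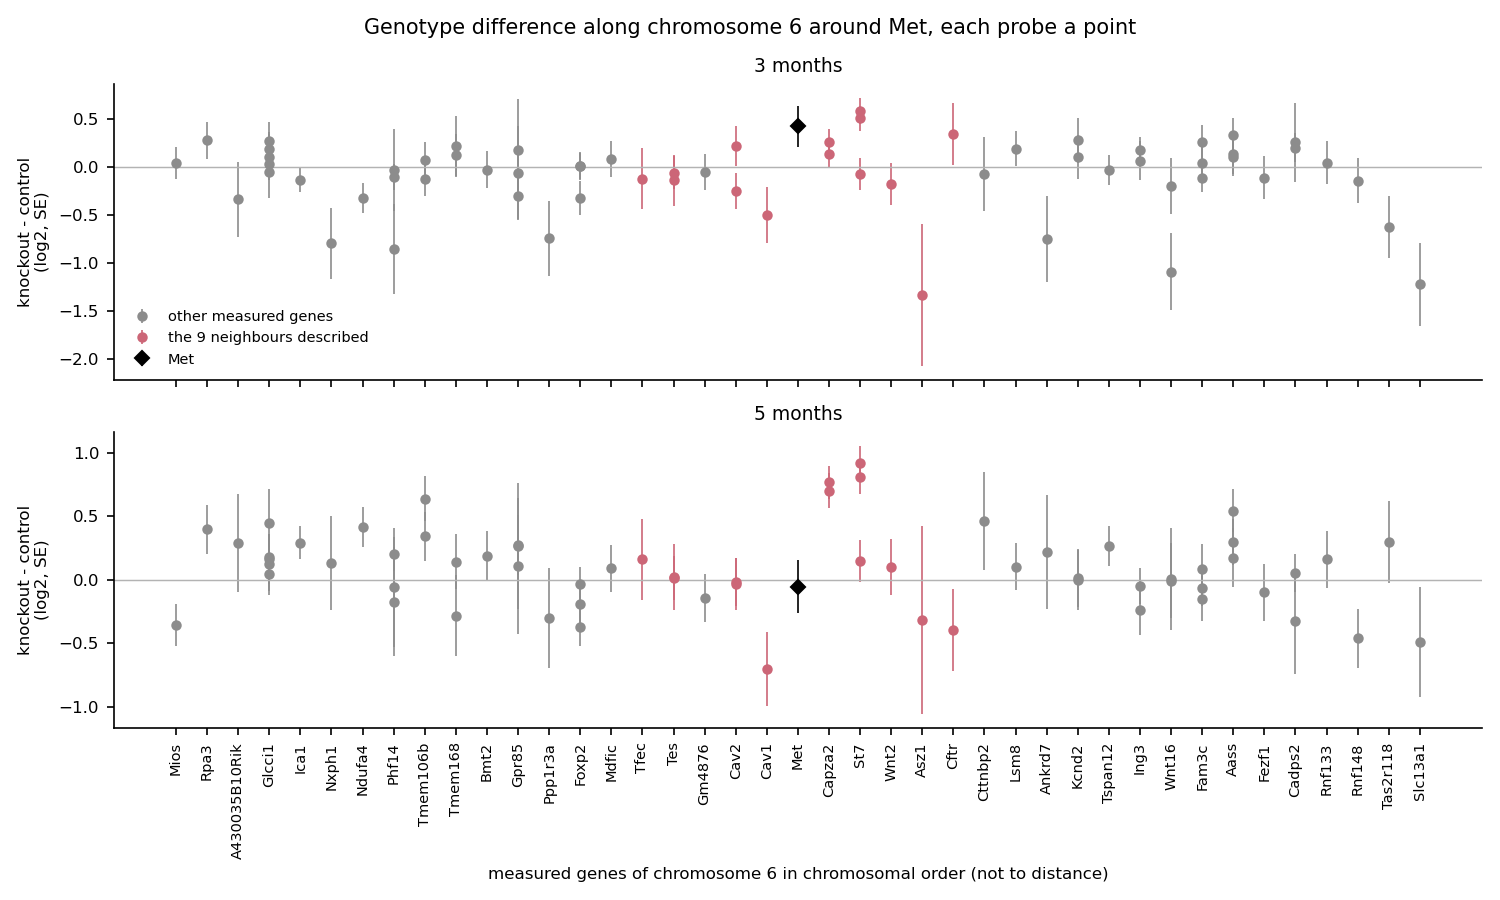
Knockout minus control difference on the log2 scale with its SE (vertical axis) for each probe of Met (black), the 9 genes (red) and the other measured genes up to the 20th on each side (grey), in chromosomal order, not to distance. At 5 months the probes of Capza2 and 2 of the 3 St7 probes lie between 0.70 and 0.92, above every grey probe (at most 0.64). Both genes were chosen for higher values in knockouts, so this place is a description. At 3 months the Capza2 probes (0.26 and 0.14) lie within the grey range (at most 0.33). The first and second St7 probes (0.58 and 0.50) lie above it there.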

How the data were processed

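Long-oligonucleotide arrays were hybridised with liver RNA and a pooled normal liver reference in both dye orientations. The authors excluded invalid features and scaled each array to its median signal in the mAdb suite, per the design text of the series. They deposited log2 ratios of the dyes on 38 arrays, where the base follows from the spacing of the values. The numerator is not given in the sources used here, nor is background handling. Medians of arrays, left as deposited, ran from -0.65 to 0.09 with liver in Cy5 and from -0.38 to -0.04 with liver in Cy3. Signals are not in the values, so the number of arrays limits the precision.

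Arrays were turned to liver over reference, a dye effect, taken from the 18 mice measured in both orientations, was removed, and arrays were averaged per mouse. Turning takes the deposited ratios to follow the dyes, which the files do not settle: the 2 arrays of a 3-month mouse correlated positively before turning, and the 14 probes did not all agree in sign between orientations. All 36607 probes were fitted over 20 mice with limma 3.58.1 (lmFit, eBayes) in R 4.3.3, with Benjamini-Hochberg adjustment over all probes and a threshold of 0.05. The fit was tested on simulated data. The labels number the animals but do not give litters, so p-values measure the spread between these mice. The 9 genes, the marker and chromosome 6 lists and the tests were chosen with earlier results of these data known. Named genes are the 9, Met, the nearest measured gene on each side, genes past the threshold on a list of 28 chromosome 6 genes around Met (there were 0), and the 5 genes most alike to each of the 4 probes past the threshold at 5 months. A further 5 chromosome 6 genes past the threshold were named after their values were seen. Alternatives covered centring, quantile normalisation, samples in the fit, replicate block, array series, dye orientation, the reading of the ratio, the dye effect, single arrays and mice, and the methods' t-test (2 samples, equal variance, without the random variance model that the design text names). Promoter sequences and gene order come from RefSeq (GRCm38.p6); all 9 genes matched. The files name no genome build.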

Additional observations from a re-analysis of the deposited data

Results flagged for a closer look

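In 56 groups of 5 mice, 4 groups for each of the 14 probes, a single mouse lay far from the other 4 in 5 groups, and chance alone does so in about 1 group in 20. These were Cav2 (second probe) in 3-month control 1 at -0.894, against -0.489 to -0.3825 in the others, and the third St7 probe in 3-month knockout 5 at 0.472, against -0.2995 to -0.1095. Wnt2 was 1.2235 in 5-month control 4, against 0.3265 to 0.523, and that mouse holds the array that stood apart. Asz1 was 3.743 in 3-month control 5, against -1.357 to 0.109, and Cftr was -2.3985 in 3-month control 1, against -0.393 to 0.063.

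For Cftr, all 5 knockouts lay above the control mean at 3 months and all 5 below it at 5 months. The genotype difference moved by -0.7387 on the log2 scale between ages, and this difference between ages was not tested. Without 3-month control 1, at -2.40, the 3-month control mean is -0.22, 1 of 5 knockouts lies above it, and the move is -0.30. At 5 months the Cftr difference between genotypes was -0.99 from liver-in-Cy5 arrays alone and 0.25 from liver-in-Cy3 arrays alone, so the orientations disagree in sign.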

How the results depend on the processing

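The number of member probes past the threshold depended on the setting, and so did the sizes, some of which changed sign. At 5 months, where 4 passed, 3 passed with array median centring and 2 without 5-month knockouts 2 and 3. With the array of control 4 turned 1 passed. None (0) passed with the 5-month mice alone, array series as a covariate, series A alone, liver-in-Cy5 arrays alone, liver-in-Cy3 arrays alone, no turning, or the methods' t-test after adjustment, while 4 did at its unadjusted threshold. The count also fell to 0 with the replicate block. Same-numbered mice did not deviate together (r = -0.18 to 0.17, above 0.1 in 3 of 10 pairs), so the numbers were not taken to pair the mice. Leaving out 1 mouse gave 1 to 4. Of all probes 53 passed at 5 months in the main fit, 29 with array median centring and 4 with the 5-month mice alone. With series A alone 2 passed. More of all probes passed with quantile normalisation than in the main fit, while the member count stayed at 4. Since the counts over all probes moved too, the member counts are not read as changes particular to these genes.

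At 3 months the count was 0 in every fit with limma and 2 with the methods' t-test unadjusted. Between ages in controls, where 1 passed, 4 did with array median centring, 3 with quantile normalisation, 2 from liver-in-Cy5 arrays alone, 3 from liver-in-Cy3 arrays alone and 4 with no turning. It was 0 with no dye effect subtracted, with the array of control 4 left out or turned, and by the methods' t-test unadjusted or adjusted. Leaving out 1 mouse gave 0 to 2. Of all probes 5369 passed between ages in controls in the main fit, and more did with array median centring and with quantile normalisation. The higher member counts under these settings are therefore not read as changes particular to these genes. Between ages in knockouts, where 0 passed, 2 did from liver-in-Cy5 arrays alone and 1 with no turning.

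The direction turned under some settings, for small and large differences, and the cause was not tested. With no turning, the 3-month differences became 0.40 (Tes, first probe), 0.044 and -0.06 (Cav2), 0.14 (Cav1) and 0.38 (Wnt2), and the 5-month ones -0.18 and -0.28 (Capza2) and -0.19 and -0.066 (St7). From liver-in-Cy5 arrays alone Tes (first probe) was 0.26 and Wnt2 0.20 at 3 months. From liver-in-Cy3 arrays alone Tfec was 0.33 and Tes (second probe) 0.0028 at 3 months, and Cftr between ages in controls -0.53. Signs at 5 months also turned for members not past the threshold. Liver-in-Cy3 arrays alone gave 0.25 for Cftr, 0.64 for Asz1, 0.29 and 0.078 for Cav2, -0.16 for Wnt2 and -0.12 for Tes (second probe). Array series as a covariate gave -0.061 for Tfec, -0.20 for Tes (first probe) and -0.044 for St7 probe 3. Quantile normalisation gave 0.014 for Tfec. Series C alone gave 0.40 (Tes, first probe), -0.030 (Cav2, second probe) and 0.22 (Asz1), and series D alone 0.0012 (St7 probe 3) and -0.14 (Cftr). Without 1 mouse, the 3-month difference ran from -0.36 to 0.13 for Tfec, from -0.15 to 0.052 for Tes (second probe), from -0.31 to 0.0057 for Wnt2 and from -0.091 to 0.52 for Cftr. Quantile normalisation raised the 5-month differences to 1.25 and 1.09 for St7 and 0.98 and 0.92 for Capza2. Signal over background is not in the values, so dim probes could not be set apart.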
